A study of Oryza sativa with 12 samples.

Results

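Rice seedlings of a line labelled grp3/grp162 double mutant were compared with seedlings of the wild type ZH11 without heat, in 6 poly(A) RNA libraries out of the 12 of the study. The 3 libraries of the mutant line (dm_29C) and the 3 of the wild type (WT_29C) were taken from whole plants grown at 29 °C, and the comparison was defined by these labels alone, not by any measured value. ZH11 is a japonica rice cultivar and the parent line of the comparison, and the labels describe GRP3 and GRP162 as knocked out, without naming an allele, a guide or a clone. Germinated seeds of both lines were raised in Kimura B nutrient solution, and plants 8 days old were used for the heat treatment of the other 6 libraries (dm_45C and WT_45C, at 45 °C). The heat lasted 18 h by the sample labels and 42 h by the treatment protocol, a conflict the labels do not settle. Those 6 entered the fit for the estimate of spread and one side-by-side comparison. The comparison asks what the mutant line expresses differently before any heat is applied.

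Several points limit what the labels can carry. The last number in the mutant genotype label changes with the replicate, but the titles name 1 line throughout, and groups follow the titles. Column names of the mutant libraries use a code of their own, so these columns were matched to the mutant line as the ones that the wild type columns leave over. The labels do not say whether the replicates came from separate plants or cultures, so p-values measure only how far these libraries differ among themselves, which may be technical. A whole plant holds many cell types, and fewer cells of a type cannot be told apart from less RNA per cell.

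Glycine-rich RNA-binding proteins of the GRP family carry an RNA recognition motif followed by a glycine-rich tail. In plants they act in splicing, RNA export and translation, and they are known for roles in cold, flowering and immunity. Labdane-related diterpenoids, the other group of genes that the results turn on, are made in rice plastids from geranylgeranyl diphosphate. Copalyl diphosphate synthases close the first rings, kaurene synthase-like enzymes the next, and cytochromes P450 oxidise the product to phytocassanes, oryzalexins or momilactones, which serve as phytoalexins against fungi and accumulate after infection or elicitor treatment.

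The genes named in the genotype were examined first. GRP3 (LOC_Os03g46770, chromosome 3; like that of GRP162, this locus was paired with its name by hand) stood at 4340, 1086 and 1355 FPKM (fragments per kilobase of transcript, scaled to the mapped fragments of the library) in replicates 1, 2 and 3 of dm_29C, against 5066, 3879 and 5489 FPKM in those of WT_29C. Replicates 2 and 3 of dm_29C lay below every wild type library, while replicate 1 lay inside the wild type range. The mean was 2260.5 ± 1806 FPKM in dm_29C and 4811 ± 835 FPKM in WT_29C (SD, n = 3 each), and the log2 difference of -1.36 ± 0.525 (SE) did not pass (limma adjusted p = 0.439, exact two-sided permutation p = 0.2, where 3 libraries against 3 allow no p below 0.1). No alternative setting made it pass, with adjusted p between 0.155 and 0.874 over 28 alternatives.

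GRP162 (LOC_Os12g43600, chromosome 12) stood at 3288, 218 and 265 FPKM in dm_29C, against 1121, 1002 and 1033 FPKM in WT_29C. Replicate 1 of dm_29C lay above every wild type library and replicates 2 and 3 below every one, so the GRP162 transcript was not lowered in replicate 1. Replicate 1 of dm_45C, at 12466 FPKM, lay above all 3 WT_45C libraries as well. The log2 difference of GRP162 at 29 °C was -0.87 ± 1.09 (adjusted p = 0.859, exact two-sided permutation p = 0.4). Without replicate 1 of both dm_29C and dm_45C it was -2.13 (adjusted p = 0.0347, against 0.0347 to 1 over 28 alternatives), a choice of libraries made on GRP162 itself. A knock-out allele need not lower its transcript, so these levels do not settle the genotype of a library. Below, dm_29C means the libraries labelled double mutant, and each direction rests on that label.

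**Figure D1:**
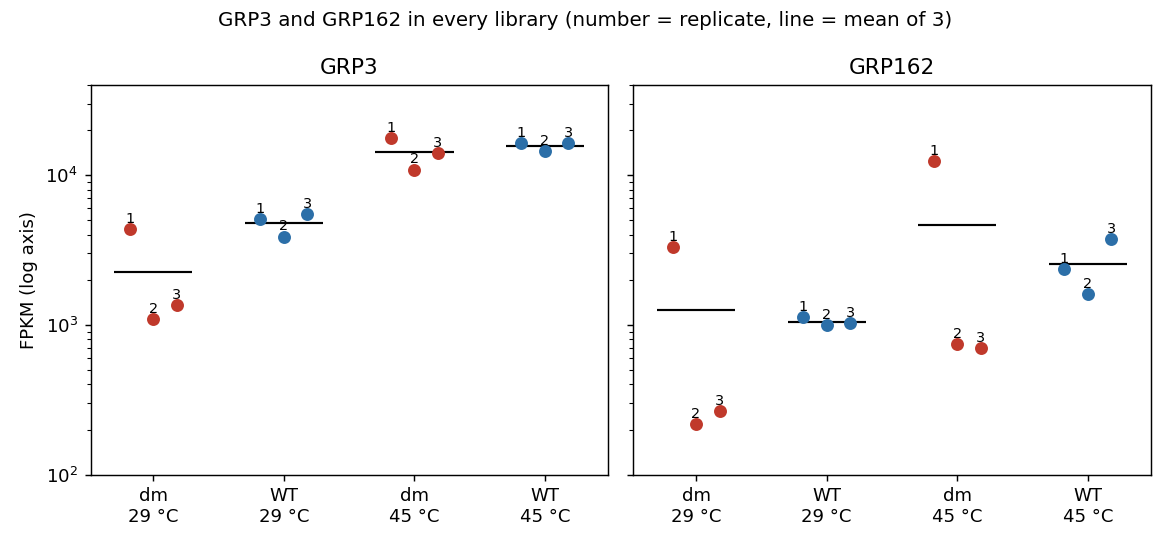
FPKM of GRP3 and GRP162 on a log axis in the 3 libraries of each group (points, numbered by replicate) with the group mean (line), red for libraries labelled double mutant (dm) and blue for wild type (WT). Replicate 1 of dm at 29 °C stands at 3288 FPKM of GRP162, above the 3 wild type libraries, and replicates 2 and 3 at 218 and 265, below them.

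The libraries at 29 °C were compared as a whole. Their FPKM summed to between 579826 and 595129, a sum that the scaling of FPKM sets in part, and between 22101 and 23473 loci lay above 0. The 10 most abundant loci held 21% of the sum in replicate 2 of WT_29C and 11.6% and 11.4% in its replicates 1 and 3. In dm_29C they held 13.6%, 14.9% and 18.9% in replicates 1, 2 and 3. Correlations of log2(FPKM + 1) across loci lay between 0.955 and 0.962 (Pearson) within dm_29C, between 0.953 and 0.954 within WT_29C, and between 0.929 and 0.955 for pairs of both groups. Replicate 1 of dm_29C and replicate 2 of WT_29C held the most loci that stood apart from both other libraries of their group. In replicate 1 of dm_29C 60 loci lay at least 2 above them on the log2 scale, against 12 and 8 in its replicates 2 and 3, and in replicate 2 of WT_29C 45 did, against 17 and 18 in its replicates 1 and 3. The summed markers of other tissues overlapped between the groups. Of 8 root markers 4 were at 0 in all 6 libraries (the transporters PT6 and AMT1;2, the root cortex gene RCC3 and the Casparian strip gene CASP1), and the list summed to between 38 and 50.6 FPKM in dm_29C and between 41.9 and 46.4 FPKM in WT_29C. The labels say whole plant, and 2 of the 8 root markers averaged 1 FPKM or more. The depth is unknown, so a gene listed at 0 is not shown to be absent. The 7 seed storage markers summed to between 5.54 and 5.82 FPKM in dm_29C and between 5.31 and 8.04 FPKM in WT_29C. The 11 Rubisco and Calvin cycle genes summed to between 8014.6 and 10488 FPKM in dm_29C and between 5555 and 13596 FPKM in WT_29C.

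Of 20305 loci tested, 40 were higher in dm_29C (0.197%) and 9 lower (0.0443%), so 49 passed in all (0.241%; limma, Benjamini-Hochberg adjusted p under 0.05). Another view of the same fit is that 1985 loci had an unadjusted p under 0.05, 1155 of them higher and 830 lower in dm_29C. The median log2 difference over all loci was 0.02. Among the 40, differences ran from 1.12 to 5.63 with a median of 2.2 on the log2(FPKM + 1) scale, and among the 9 from -4.03 to -1.21 with a median of -1.47. Most of the loci that rose were scarce in the wild type. The mean of WT_29C was under 1 FPKM at 25 of the 40. Of the 40, 7 were listed at 0 in all 3 WT_29C libraries, whereas 17 reached a mean of 10 FPKM or more in dm_29C. The filter asks for FPKM 1 in only 3 of the 12 libraries, so a scarce locus can enter through dm_29C alone. How many of all loci tested were as scarce in the wild type was not counted, so these counts describe the calls only. Each of the 40 lay above every wild type library in all 3 dm_29C libraries, and each of the 9 below, as did 8.66% and 5.42% of all loci tested.

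The number of calls depended on single libraries. Without replicate 1 of dm_29C, where GRP162 stood above the wild type, 19 loci rose and 4 fell, of which 20 were among the 49. Without replicate 2 of dm_29C 10 rose and 1 fell, and without replicate 3 26 rose and 2 fell. Leaving out replicate 1 of WT_29C left 21 rising and 3 falling, replicate 2 of WT_29C 17 and 7, and replicate 3 of WT_29C 14 and 0. Replicate 1 of WT_45C, which enters only the estimate of spread, left 21 and 5.

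**Figure D2:**
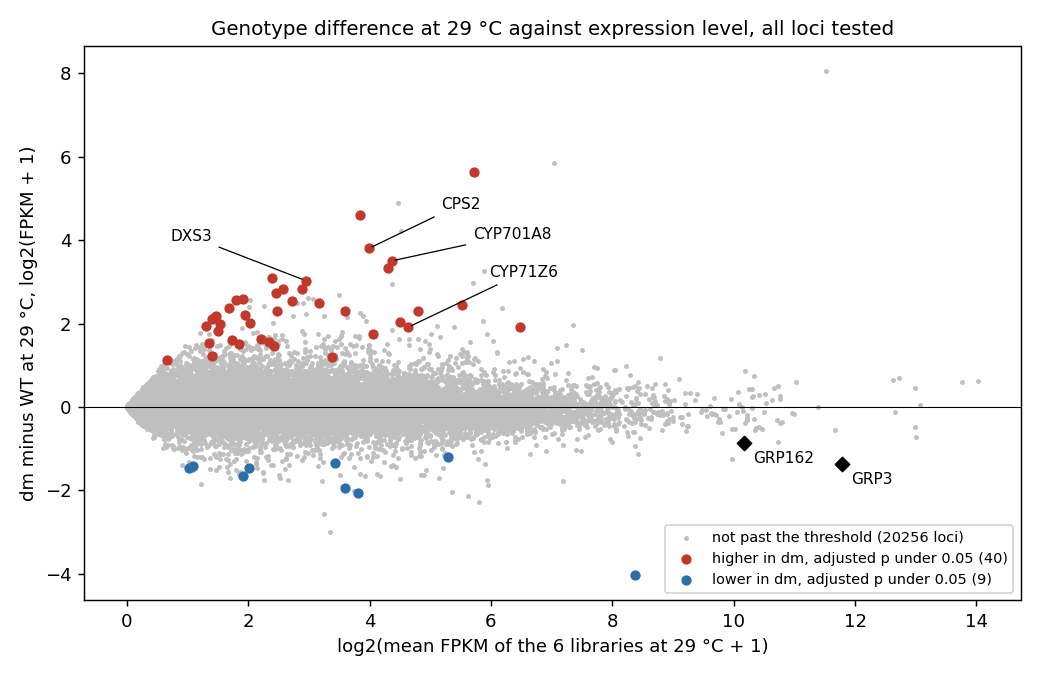
Difference between dm and WT at 29 °C (vertical axis, log2(FPKM + 1)) against expression level (horizontal axis) for the 20305 loci tested, with red for the 40 loci higher in dm and blue for the 9 lower at an adjusted p under 0.05. GRP3 and GRP162 (black diamonds) lie at -1.36 and -0.87 without passing, while 4 named phytoalexin genes lie between 1.91 and 3.80.

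Diterpenoid phytoalexin genes were the listed genes that changed. Of 38 gene lists this was the sole one with members past the threshold. Of its 21 loci 8 passed the filter on low values and were tested, 4 of the 8 rose, none fell, and the median log2 difference of the 8 was 2.16, beside 0.02 and 0.197% of loci rising over all loci tested. The filter counts a locus only where it reaches FPKM 1 in at least 3 libraries, so a scarce gene can enter through the group where it is high, and the 8 are not the whole list. The list was chosen with earlier results of these data known, and its count is therefore a description.

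The genes that rose encode 2 enzymes of the early steps and 2 P450s, and no kaurene synthase-like gene passed. DXS3 (LOC_Os07g09190, chromosome 7), a deoxyxylulose phosphate synthase that feeds the plastid isoprenoid pathway and whose name is not in the reference gene table, stood at 11.7, 16.8 and 9.59 FPKM in dm_29C, against 0.08, 1.14 and 0.91 FPKM in WT_29C. Its log2 difference was 3.03 ± 0.386 (SE; adjusted p = 0.0062), with means of 12.7 ± 3.71 FPKM in dm_29C and 0.71 ± 0.558 FPKM in WT_29C (SD, n = 3 each). The lowest mutant library lay above the highest wild type library by a wide margin. The call was lost in 3 of 28 alternatives (adjusted p 0.00359 to 0.212), among them without replicate 2 of dm_29C (log2 difference 2.82, adjusted p = 0.054).

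CPS2 (LOC_Os02g36210, chromosome 2), the copalyl diphosphate synthase that makes the ent isomer for phytocassanes and oryzalexins, stood at 30.5, 31.4 and 23.9 FPKM in dm_29C, against 1.07, 1.05 and 1.2 FPKM in WT_29C. Both groups were tight, and they did not come near each other. The log2 difference was 3.80 ± 0.437 (adjusted p = 0.0042), with means of 28.6 ± 4.10 FPKM in dm_29C and 1.11 ± 0.0814 FPKM in WT_29C, a ratio of 25.9. It passed without any one of the 6 libraries (adjusted p 0.016 to 0.0298), replicate 1 of dm_29C included, and was lost in 1 of 28 alternatives, a pseudocount of 0.1 (adjusted p = 0.144, against 3e-05 to 0.144 over the 28).

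A pair of P450 genes rose as well. CYP701A8 (LOC_Os06g37300, chromosome 6), a relative of ent-kaurene oxidase that oxidises phytoalexin precursors, stood at 28.1, 43.3 and 39.0 FPKM in dm_29C, against 1.86, 1.92 and 3.27 FPKM in WT_29C. CYP71Z6 (LOC_Os02g36150, chromosome 2), a hydroxylase of ent-isokaurene, stood at 35.05, 48.9 and 30.8 FPKM in dm_29C, against 12.01, 7.33 and 8.98 FPKM in WT_29C. The groups did not overlap at either gene, although CYP71Z6 was already well expressed in the wild type. The log2 differences were 3.50 ± 0.623 for CYP701A8 (adjusted p = 0.0432) and 1.91 ± 0.347 for CYP71Z6 (adjusted p = 0.0482). Both lay close to the threshold, and neither call held when any one of the 6 libraries at 29 °C was left out. Over the 28 alternatives CYP701A8 missed the threshold in 16 (adjusted p 0.00873 to 0.19) and CYP71Z6 in 17 (adjusted p 0.0147 to 0.24). CYP71Z6 and CYP71Z7 are near-identical neighbours, and reads common to both could have been assigned to either, so their split is uncertain.

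The kaurene synthase-like genes stood differently from each other. KSL5 (LOC_Os02g36220), the neighbour of CPS2, stood at 11.6, 3.93 and 5.89 FPKM in dm_29C, against 0.36, 0.08 and 0.94 FPKM in WT_29C, and is named here after its value was seen. Its groups did not overlap, but the log2 difference of 2.41 ± 0.466 did not pass (adjusted p = 0.0707; 0.0124 to 0.254 over 27 alternatives, 2 of which passed). KSL6 (LOC_Os02g36264), a producer of ent-isokaurene, stood at 0.90, 0.72 and 0.57 FPKM in dm_29C and was listed at 0 in all 3 WT_29C libraries, too scarce to be tested. KSL7, which makes the precursor of phytocassanes, and KSL10, which makes that of oryzalexins, were listed at 0 in all 6 libraries. In the momilactone branch, the synthase CPS4 averaged 0.277 ± 0.0666 FPKM in dm_29C and 0.350 ± 0.270 FPKM in WT_29C, and KSL4 was listed at 0 in all libraries but replicate 1 of WT_29C (0.18 FPKM).

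Among the other members, the P450 gene CYP76M6 averaged 1.43 ± 0.510 FPKM in dm_29C and 0.603 ± 0.349 FPKM in WT_29C (log2 difference 0.60, adjusted p = 0.548). The bZIP factor TGAP1, a regulator of phytoalexin genes, averaged 44.2 ± 8.01 FPKM in dm_29C and 32.6 ± 3.14 FPKM in WT_29C (log2 difference 0.42, adjusted p = 0.631). CYP99A3, of the momilactone branch, stood at 1.27, 1.68 and 0.95 FPKM in dm_29C, against 0, 0.58 and 0.39 FPKM in WT_29C, and was not tested. In all, 7 of the 8 tested members lay above every wild type library in all dm_29C libraries, beside 8.66% of all loci tested. The remaining member had a log2 difference of -0.29. Without replicate 1 of WT_29C 7 of the 8 were positive and 0 negative, so that difference rested on this library. KSL5 reached FPKM 1 only in libraries labelled double mutant. DXS3 and CYP76M6 reached it in too few wild type libraries to enter by those alone, but in enough libraries outside dm_29C. The filter therefore bears on the count of members above the wild type too.

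**Figure D3:**
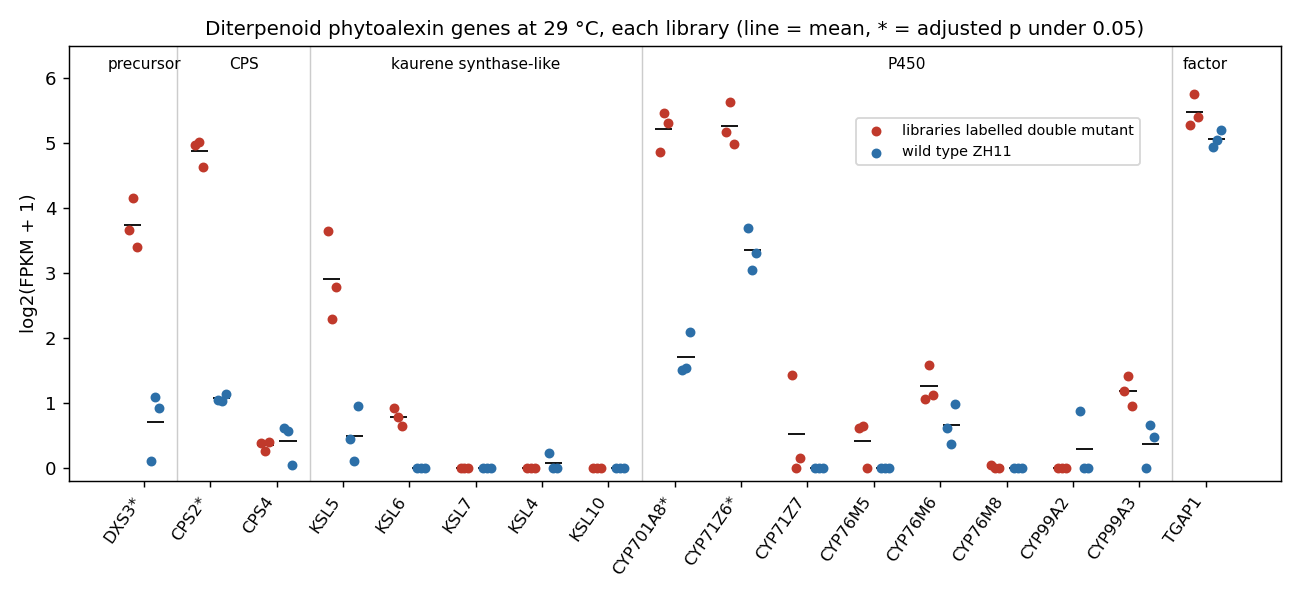
Log2(FPKM + 1) of 17 diterpenoid phytoalexin genes in each library at 29 °C, in the order of the pathway, with dm in red at the left and WT in blue at the right of each gene, points for libraries, lines for means and stars for an adjusted p under 0.05. DXS3, CPS2, CYP701A8 and CYP71Z6 pass, KSL5 is separated without passing, and KSL7 and KSL10 lie at 0 in both groups.

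CPS2, KSL5, KSL6, CYP71Z6, CYP71Z7 and the CYP76M genes form a known gene cluster on chromosome 2. Between LOC_Os02g36000 and LOC_Os02g36300 the table holds 21 loci, of which 6 were tested, 2 rose (CPS2 and CYP71Z6) and 8 were at 0 in all 12 libraries. KSL7 and CYP76M8, in the same stretch, lay at 0 or up to 0.03 FPKM in both groups at 29 °C.

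The plastid isoprenoid pathway that supplies the substrate did not pass at any of its 9 tested members outside DXS3 (limma; a list added after the calls had been seen). Its median log2 difference was -0.02. DXR, the reductoisomerase after DXS, averaged 80.1 ± 5.06 FPKM in dm_29C and 83.6 ± 17.2 FPKM in WT_29C, and MCS, a cyclase further down, stood at 40.04, 53.5 and 33.9 FPKM in dm_29C, against 51.8, 46.4 and 62.5 FPKM in WT_29C. The other synthases DXS1 and DXS2 had log2 differences of 0.40 (adjusted p = 0.695) and 0.29 (adjusted p = 0.889). Gibberellin genes share the early steps, and none of 10 tested members passed, with a median of -0.08. Their most abundant checked members, the receptor GID1 and the repressor SLR1, had log2 differences of -0.09 and 0.08.

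Of the 49 calls 45 belong to no list, and the largest are given by locus ID. LOC_Os03g43100 stood at 22.1, 30.3 and 27.4 FPKM in dm_29C, against 0, 0.25 and 0.15 FPKM in WT_29C, a log2 difference of 4.6 ± 0.229 (adjusted p = 1.21e-06). It was the sole locus of the 49 that passed in all 28 alternatives. LOC_Os03g02470 stood at 140.8, 165.6 and 4.87 FPKM in dm_29C, against 0, 0.04 and 0.09 FPKM in WT_29C, so that replicate 3 lay far under replicates 1 and 2 and yet above the wild type (log2 difference 5.63 ± 0.905, adjusted p = 0.025). That call was lost in 10 of 28 alternatives (adjusted p 2.53e-08 to 0.229), among them without replicate 1 or 2 of dm_29C or any one replicate of WT_29C.

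Of the loci that fell, LOC_Os05g11320 stood at 40.6, 17.1 and 26.0 FPKM in dm_29C, against 245.6, 253.6 and 1408 FPKM in WT_29C (log2 difference -4.03 ± 0.701, adjusted p = 0.0405). Replicate 3 of WT_29C was far above the other wild type libraries, and without it the difference was -3.20 (adjusted p = 0.123). LOC_Os06g28050 stood at 1.88, 5.70 and 6.32 FPKM in dm_29C, against 25.3, 15.1 and 23.9 FPKM in WT_29C (log2 difference -2.07 ± 0.364, adjusted p = 0.041). Neither of these calls held without any one of the 6 libraries, with adjusted p over 28 alternatives between 0.0287 and 0.19 for LOC_Os05g11320 and between 0.0291 and 0.242 for LOC_Os06g28050. Of the 49 loci 7 lie on chromosome 12 (14.3%, against 5.56% of loci tested), where GRP162 lies, and 5 on chromosome 3 (10.2%, against 13.1%), where GRP3 lies.

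None of the 472 tested members of the other 37 lists passed by limma, beside 0.241% of all loci tested. A list without a call, here and below, is close to that share, and its lack of calls says little about its genes. Unadjusted, 43 of the 472 had a p under 0.05 (9.11%, beside 9.78% of all loci), 24 higher and 19 lower in dm_29C. The medians of 17 of the 37 lists took the other sign when 1 of the 6 libraries at 29 °C was left out. The lowest adjusted p among them belonged to APX3, a peroxisomal ascorbate peroxidase named here after its value was seen. It stood at 5.06, 5.28 and 7.37 FPKM in dm_29C, against 1.47, 0.74 and 0.78 FPKM in WT_29C, without overlap (log2 difference 1.79, adjusted p = 0.104).

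RNA-binding and heat genes were among these lists. Of 6 glycine-rich and cold shock RNA-binding genes, GRP3 and GRP162 had the largest differences, and the other 4 lay between -0.11 and 0.26. Of 21 tested SR splicing factors none passed (median -0.01), and the most abundant checked ones, RSZ23 and RSZ21A, had log2 differences of -0.26 and -0.34. RSZ23 averaged 109.9 ± 6.13 FPKM in dm_29C and 131.7 ± 10.8 FPKM in WT_29C, with no overlap.

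Before heat none of 11 small heat shock proteins, chaperones that keep damaged proteins soluble, passed (median 0.16). HSP24.1 and HSP17.9A averaged 24.4 ± 7.64 and 27.1 ± 12.2 FPKM in dm_29C, against 18.8 ± 6.26 and 14.4 ± 3.03 FPKM in WT_29C. None of 18 HSP70, HSP90 and HSP101 genes passed (median 0.01), with HSP82B and HSP81-3, both HSP90 chaperones, at log2 differences of -0.14 and 0.03. None of 21 heat stress transcription factors passed (median 0.20), with HSFA2E and HSFA1 at 0.29 and 0.10. Of 6 genes from thermotolerance loci none passed (median 0.20), with the RNA helicase TOGR1 at 0.05. Of 12 endoplasmic reticulum chaperones and sensors none passed (median 0.06), with the calreticulin CRT1 and the disulfide isomerase PDIL1-1 at 0.05 and -0.03.

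Clock and light genes did not pass either. Of 14 clock genes none passed (median -0.10), and the differences lay between -0.28 and 0.23. In no clock gene did the groups separate, beside 8.66% of all loci tested that lay above and 5.42% below. With 14 genes this is not far from those shares. LHY, the morning factor, averaged 151.6 ± 41.9 FPKM in dm_29C and 127.6 ± 22.5 FPKM in WT_29C, and ELF3-1, of the evening complex, 27.7 ± 3.63 FPKM in dm_29C and 33.2 ± 10.6 FPKM in WT_29C. Of 15 photoreceptors and PIF-like factors none passed (median 0.05), with the phytochromes PHYB and PHYC at 0.05 and 0.14.

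Defence and hormone lists that border on the phytoalexins gave no call. All 12 tested phenylpropanoid genes, which lead to lignin and flavonoids, had a positive log2 difference (median 0.43, beside 53.3% positive over all loci), 5 of them without overlap (8.66% of all loci), and none passed. ROMT9, a methyltransferase, averaged 70.4 ± 22.1 FPKM in dm_29C and 45.0 ± 10.5 FPKM in WT_29C, and 4CL3, a coumarate CoA ligase, 32.5 ± 5.47 FPKM in dm_29C and 24.3 ± 1.84 FPKM in WT_29C. The median stayed between 0.31 and 0.56 without any one of the 6 libraries, and 9 to 12 of the 12 stayed positive. Of 9 tested NPR1 and pathogenesis-related genes none passed. Their median was 0.32, and it was -0.10 without replicate 3 of WT_29C, -0.09 without replicate 2 of dm_29C and 0.61 without replicate 1 of WT_29C. PBZ1 stood at 13.3, 23.8 and 21.2 FPKM in dm_29C, against 40.4, 6.96 and 2.47 FPKM in WT_29C. NPR1, the salicylate co-activator, had a log2 difference of -0.17.

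Jasmonate and WRKY genes moved with 1 wild type library. Of 21 tested jasmonate genes 19 had a negative difference (median -0.27), where 53.3% of all loci had a positive one, and none passed. Without replicate 2 of WT_29C 15 of the 21 were positive and the median was 0.05. In that library the JAZ repressor gene TIFY11B stood at 99.0 FPKM, against 4.54 and 0.88 FPKM in WT_29C replicates 1 and 3 and 8.31 to 12.8 FPKM in dm_29C. TIFY11A stood at 14.4 FPKM in it and at or under 0.15 FPKM in the other 5 libraries. The abundant members TIFY10B and TIFY10A had log2 differences of -0.27 and -0.51. Of 16 WRKY factors none passed (median -0.32, and -0.05 without that library), and WRKY76 stood at 27.5 FPKM in it and between 0.27 and 1.66 FPKM in the other 5. TIFY11A, TIFY11B and WRKY76 were chosen after their values were seen. WRKY51 and WRKY71, the most abundant checked members, had differences of 0.06 and -0.41.

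The remaining hormone and stress lists gave no call either. Of 38 tested genes of abscisic acid, dehydrins and LEA proteins none passed. Their median was 0.29, and 0.13 without replicate 2 of dm_29C. Of the 38, 28 were positive, beside 53.3% of all loci, and 7 lay above every wild type library, beside 8.66% of all loci. The phosphatases PP2C09 and PP2C06, which the hormone induces, had log2 differences of 0.48 and 0.55, both without overlap. Of 15 ethylene genes none passed (median -0.12), with the factor EIL1 and the receptor ERS1 at 0.15 and 0.10. Of 8 type-A cytokinin response regulators none passed (median 0.17), with RR2 and RR4 at -0.32 and 0.16. Of 15 DREB and stress NAC factors none passed (median -0.03), with NAC6 and NAC5 at 0.06 and -0.24. Of 10 genes for proline, trehalose and galactinol none passed (median 0.03), with the aldehyde dehydrogenases BADH2 and BADH1 at 0.24 and 0.05.

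Photosynthesis and carbon genes did not pass, and several of their medians depended on single libraries. Of 34 light harvesting and photosystem genes 25 had a negative difference, where 53.3% of all loci had a positive one. Their median was -0.15, against 0.04 without replicate 1 and -0.34 without replicate 3 of WT_29C. Without replicate 3 of dm_29C it was -0.02, with 19 of the 34 negative. The Rieske protein PETC and plastocyanin PETE had differences of -0.17 and -0.12. Of 14 photorespiration genes 12 were negative (median -0.30, against -0.14 without replicate 1 and -0.44 without replicate 3 of WT_29C). GLO1, a glycolate oxidase, averaged 1490.9 ± 222 FPKM in dm_29C and 1869.9 ± 431 FPKM in WT_29C, and GDCH, of glycine decarboxylase, had a difference of 0.10. Of 11 Rubisco and Calvin cycle genes none passed (median -0.06, against 0.27 without replicate 1 and -0.30 without replicate 3 of WT_29C). RBCS2, a Rubisco small subunit, stood at 2601, 2335 and 2096 FPKM in dm_29C, against 2974, 1874 and 674 FPKM in WT_29C, and the activase RCA had a difference of -0.19.

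Of 12 chlorophyll biosynthesis genes none passed (median -0.17, and 0.02 without replicate 1 of WT_29C), with the chlorophyll synthase YGL1 at -0.46 and GSA, which makes the precursor aminolevulinate, at 0.16. Of 7 chlorophyll breakdown genes 6 were negative (median -0.39, the lowest of the 38 lists), where 53.3% of all loci were positive, and none passed. NYC1, a chlorophyll b reductase, had a difference of -0.39, and RCCR1, a reductase of a breakdown product, averaged 21.4 ± 4.01 FPKM in dm_29C and 43.7 ± 17.3 FPKM in WT_29C (adjusted p = 0.438). Of 19 genes of sucrose metabolism and transport none passed (median 0.18), with the fructose bisphosphatase CYFBP1 and the sucrose transporter SUT1 at -0.25 and 0.32. Of 11 nitrate and ammonium genes none passed (median -0.19), with the glutamine synthetases GLN1;1 and GLN1;2 at 0.33 and 0.04. Neither of the 2 tested amylase genes passed (median 0.18), and RAMY3B had a difference of -0.16.

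Redox, transport and growth genes completed the lists. Of 17 genes for scavengers of reactive oxygen none passed (median -0.01), with the superoxide dismutase SODCC1 at 447.8 ± 66.9 FPKM in dm_29C and 364.6 ± 12.6 FPKM in WT_29C and the peroxidase APX1 at 401.8 ± 64.4 FPKM in dm_29C and 292.8 ± 24.6 FPKM in WT_29C, both without overlap. Of 3 alternative oxidases none passed (median 0.80), and AOX1A stood at 23.4, 38.8 and 30.2 FPKM in dm_29C, against 11.3, 18.8 and 22.6 FPKM in WT_29C. Of 5 metallothioneins none passed (median 0.08), with MT2A and MT2B at 0.20 and -0.93. Of 15 aquaporins and silicon channels none passed (median 0.08), with the plasma membrane channels PIP1;1 and PIP1;2 at 0.08 and 0.54.

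Of 8 replication and cell cycle genes none passed (median 0.15), with the replication clamp PCNA and the helicase subunit MCM2 at -0.09 and 0.35. Of 10 cellulose synthases none passed (median 0.30), with CESA3 and CESA1 at 0.33 and 0.30. Of 13 iron genes none passed (median -0.07), with the transporter YSL16 and the factor IRO3 at 0.10 and 0.09. Of 3 tested root markers none passed (median 0.08), with the phosphate transporters PT1 and PT8 at -0.05 and 0.08, and the sole tested seed storage gene, the glutelin GLUA2, had a difference of -0.17.

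**Figure D4:**
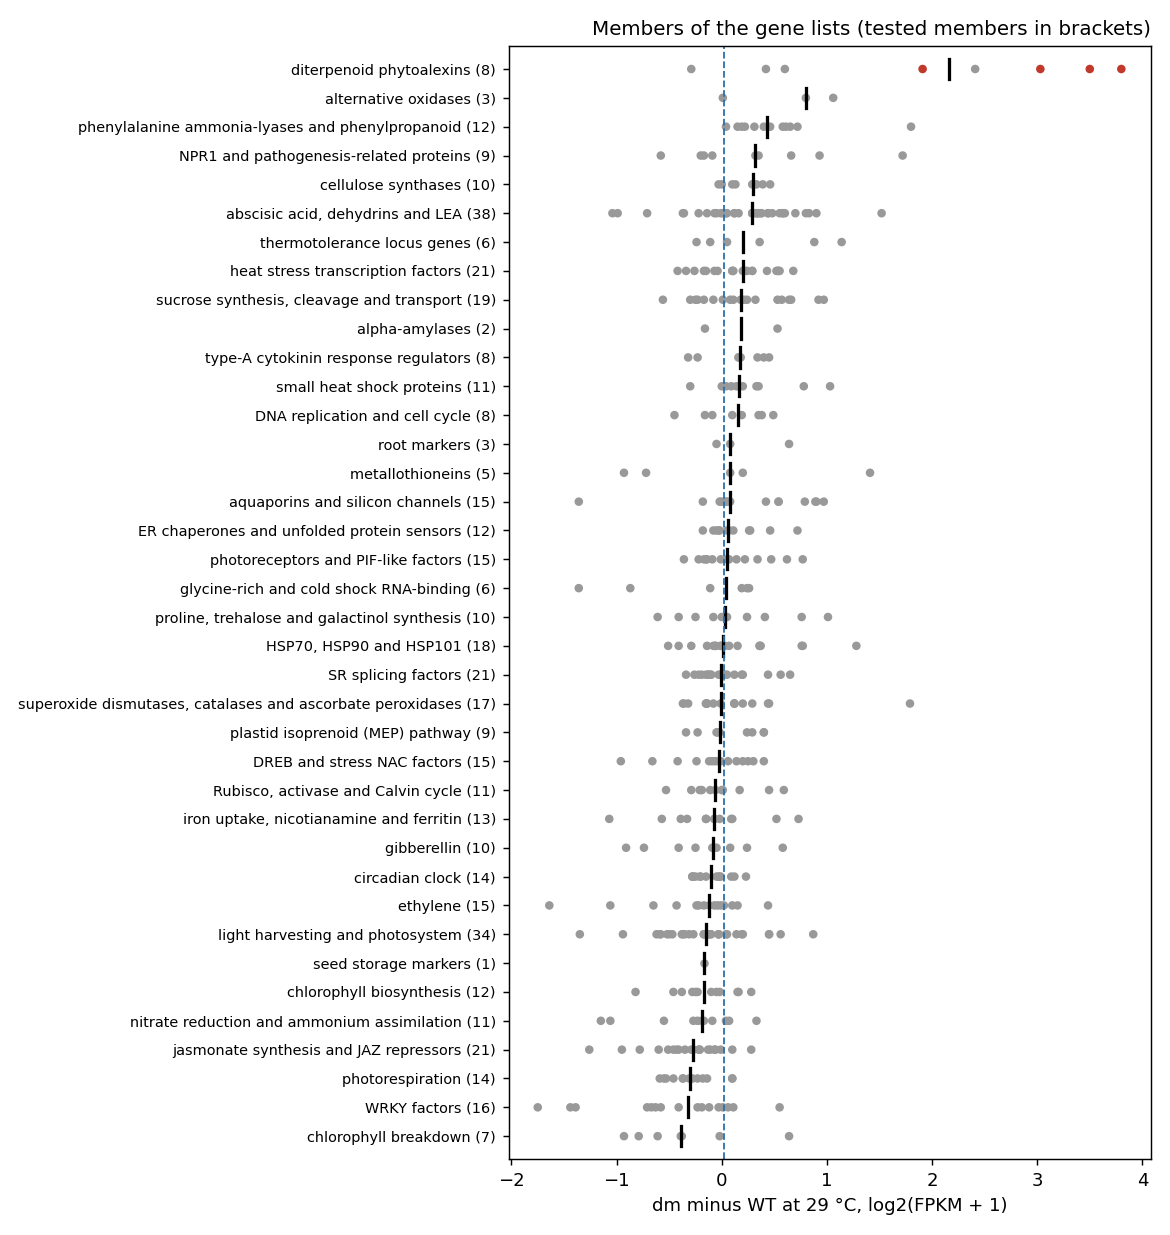
Log2 difference between dm and WT at 29 °C of the tested members of each of 38 gene lists (points, red where an adjusted p was under 0.05), with the median of the list (black bar) and of all loci (dashed line, 0.02), and the number of tested members in brackets. The diterpenoid phytoalexins have a median of 2.16 with 4 red points, and every other list has a median between -0.39 and 0.80 with none.

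The same genotypes were also sampled at 45 °C, in libraries that the 29 °C contrast does not use, although all 12 libraries share the estimate of spread. There 4 loci passed (0.0197%), 3 higher and 1 lower in dm_45C, and 1618 had an unadjusted p under 0.05. Of the 40 loci that rose at 29 °C, 36 had a positive difference at 45 °C (beside 58.3% of all loci), the median was 0.52, and 11 lay above every WT_45C library (beside 9.31% of all loci). Some of the 40, among them LOC_Os02g36830 and LOC_Os01g09930, were at 0 in every WT_45C library, so their difference could not be negative. Others were positive through 1 library, as at LOC_Os06g20790 (0, 2.24 and 0 FPKM in dm_45C, against 0, 0.07 and 0.07 FPKM in WT_45C). How many of all loci were so limited was not counted. Of the 9 that fell, 7 had a negative difference at 45 °C, where 58.3% of all loci had a positive one. The median of the 9 was -0.58, and 6 lay below every WT_45C library (beside 3.96% of all loci). LOC_Os08g09060, 1 of the 9, was at 0 in every library at 45 °C and so had no direction there. At 46 of the 49 the difference was smaller in size at 45 °C than at 29 °C, but the loci were chosen for their size at 29 °C.

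Phytoalexin genes did not pass at 45 °C. CPS2 stood at 0.02, 3.83 and 0.51 FPKM in dm_45C, against 0.14, 0.08 and 0.66 FPKM in WT_45C, a log2 difference of 0.62 (adjusted p = 0.754). CYP701A8 stood at 0.74, 9.89 and 3.53 FPKM in dm_45C, against 2.12, 1.2 and 9.96 FPKM in WT_45C (log2 difference 0.06). DXS3 and CYP71Z6 had differences of 0.05 and 0.61. The groups overlapped at all 4 genes. The direct test of 29 °C against 45 °C passed at 3 loci of all tested (0.0148%), none of them a listed gene. For the 4 genes it gave adjusted p of 0.472 for CPS2, 0.472 for DXS3, 0.681 for CYP701A8 and 0.932 for CYP71Z6, so the difference is not shown to depend on temperature.

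Both loci that passed at both temperatures were higher in the libraries labelled double mutant, and they are given here because they passed. LOC_Os03g43100 stood at 25.2, 42.1 and 38.8 FPKM in dm_45C, against 0, 0.05 and 0.27 FPKM in WT_45C (log2 difference 5.01, adjusted p = 4.2e-07). LOC_Os03g60550 stood at 11.8, 15.1 and 13.4 FPKM in dm_29C, against 5.24, 3.85 and 7.07 FPKM in WT_29C (log2 difference 1.2 ± 0.206, adjusted p = 0.0378), and at 15.9, 12.6 and 12.8 FPKM in dm_45C, against 4.25, 3.71 and 3.72 FPKM in WT_45C (log2 difference 1.59, adjusted p = 0.0267). Its call at 29 °C was lost in 15 of 28 alternatives (adjusted p 0.0252 to 0.292), among them without any one library at 29 °C except replicate 3 of WT_29C. LOC_Os03g02470 stood at 75.1, 110.2 and 83.8 FPKM in dm_45C, against 0.13, 0.49 and 0.50 FPKM in WT_45C, without overlap and without passing (log2 difference 6.04, adjusted p = 0.0677).

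**Figure D5:**
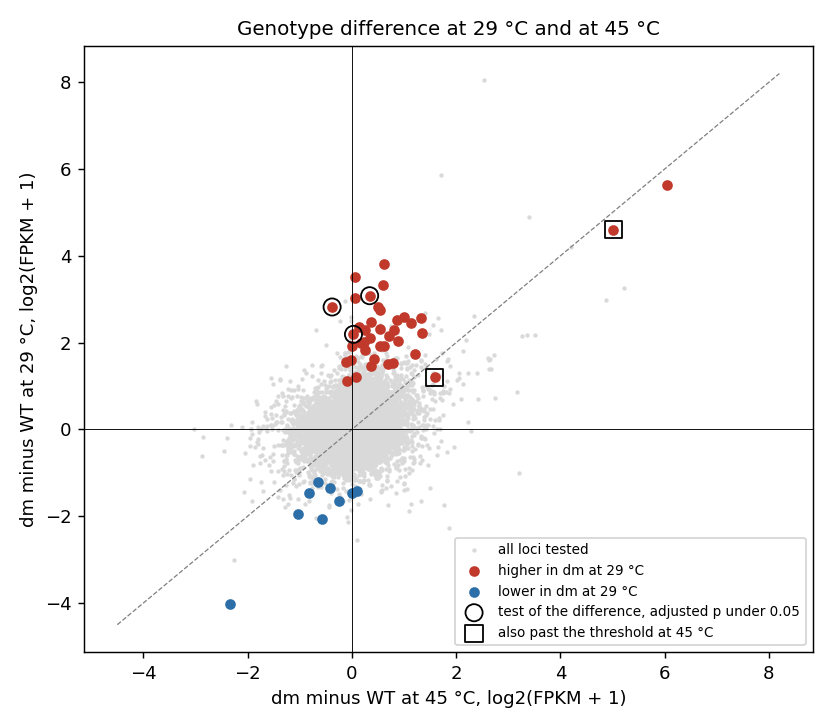
Log2 difference between dm and WT at 29 °C (vertical axis) and at 45 °C (horizontal axis) for all loci tested, with the 40 loci higher in dm at 29 °C in red and the 9 lower in blue, circles for the 3 loci past the test of the difference, squares for the 2 that also passed at 45 °C, and a dashed line where both differences are equal. Most of the 49 loci lie nearer to 0 on the 45 °C axis, and 36 of the 40 lie to the right of 0. Loci at 0 in every WT_45C library could not lie to the left of 0.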

How the data were processed

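Poly(A) RNA of 12 rice libraries was sequenced with unique molecular identifiers, per the labels' protocols. The authors deposited FPKM per locus, per the file headers. Per the submitters' processing notes, the tools were StringTie 1.3.4d, HISAT2 2.0.4, cutadapt 1.9, UMI-tools, edgeR and DESeq2, and the sources used here give no genome build. The sequencing depth is unknown, and no counting interval is given. Here log2(FPKM + 1) was fitted for 20305 of 42004 loci, those reaching FPKM 1 in 3 or more of the 12 libraries, in limma 3.58.1 (statmod 1.5.0, R 4.3.3) with 4 group means and an intensity trend. P-values were Benjamini-Hochberg adjusted over all loci tested, with a threshold of 0.05. Fold changes of scarce loci depend on the added 1 and are understated. The fit was run on simulated data with known changes placed only in loci of higher expression, so changes in scarce loci were not covered.

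The 38 gene lists and the members were chosen with earlier results of these data known, the plastid isoprenoid list was added after the calls were seen, and the loci of KSL5 and KSL6 were corrected after their values were seen. Of 600 hand-entered names, 351 matched the RefSeq gene table by symbol, chromosome and order (within 2 Mb), 14 that lay elsewhere were dropped, and 583 were used. Names outside that table, GRP3 and GRP162 included, rest on the hand-entered pairing alone. No locus ID matched that table directly. Named are GRP3 and GRP162, each listed gene past the threshold, for a list with none its 2 most abundant members (of those with a matched name where there are any), and 2 unnamed loci in each direction. Any other gene is said to be chosen after its value was seen. The alternatives were 28 other settings of the pseudocount, filter, scaling, fit, replicate block and libraries.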

Additional observations from a re-analysis of the deposited data

Results flagged for a closer look

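At 3 loci the difference between genotypes at 29 °C differed from that at 45 °C by a test of the difference itself (limma, adjusted p under 0.05, 0.0148% of loci, with 1039 loci at an unadjusted p under 0.05). They were chosen after their values were seen, are also among the 40 loci that rose at 29 °C, and are given by locus ID.

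LOC_Os02g36830 stood at 3.77, 3.33 and 3.57 FPKM in dm_29C and was listed at 0 in all 3 WT_29C libraries, whereas dm_45C held 0, 0 and 0.06 FPKM and WT_45C was at 0. Its difference between temperatures was 2.16 on the log2(FPKM + 1) scale (adjusted p = 0.0446). LOC_Os04g03050 stood at 10.5, 15.4 and 10.02 FPKM in dm_29C, against 0.87, 1.40 and 0.31 FPKM in WT_29C, and at 0.09, 0.76 and 0.10 FPKM in dm_45C, against 0.62, 1.08 and 0.37 FPKM in WT_45C (difference between temperatures 3.20, adjusted p = 0.0446). LOC_Os10g20890 stood at 11.2, 9 and 4.99 FPKM in dm_29C, against 0.11, 0.09 and 0 FPKM in WT_29C, and at 1.19, 1.13 and 0.96 FPKM in dm_45C, against 0.41, 0.66 and 0.94 FPKM in WT_45C (difference between temperatures 2.74, adjusted p = 0.0446). None of the 3 was above 1.19 FPKM in any library at 45 °C. Without a single library the number of loci past this test lay between 0 and 4.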

How the results depend on the processing

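Under 28 alternatives none of the 49 calls changed direction, and 1 of them, LOC_Os03g43100, passed in all. The reported counts were 40 loci rising and 9 falling, and 4 phytoalexin genes, the sole listed genes, rising. A pseudocount of 0.1 gave 19, 5 and 0, a pseudocount of 0.5 gave 2 phytoalexin genes, a minimum of FPKM 5 gave 10, 3 and 2, the 6 libraries at 29 °C alone gave 5 falling, and robust empirical Bayes gave 2 phytoalexin genes. Leaving out 1 library at a time gave 10 to 53 rising, 0 to 11 falling, 1 to 5 phytoalexin genes, and 1 to 6 listed genes rising. No listed gene fell, except 1 with the replicate block over 12 libraries and GRP162, as 1 gene, without both mutant replicate 1 libraries (-2.13). The test of the difference between temperatures called 3 loci, 1 with the replicate block and 0 without both mutant replicate 1 libraries, and 0 to 4 without single libraries, which was chosen after seeing the data. Leaving out libraries or loci lowers the number fitted, and for the other settings the cause was not tested.

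Same-numbered libraries of dm_29C and WT_29C deviated together with correlations of 0.13, 0.10 and -0.05 for replicates 1, 2 and 3. Differently numbered libraries gave -0.16 to 0.07, so replicates 1 and 2 lay above that range and replicate 3 inside it. With 3 same-numbered pairs the check cannot settle whether the numbers pair the libraries, and it did not cover the heated libraries. The main fit did not pair them. A replicate block gave 35 rising and 9 falling over 12 libraries, and 3 and 0, with 2 phytoalexin genes, over the 6 at 29 °C. Differences of scarce loci are limited by the unknown depth.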

Other observations

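Neither of the largest differences at 29 °C passed. At both loci every dm_29C library lay above every WT_29C library, but by very different amounts. Of 14 loci that differed by at least 3 on the log2 scale 8 passed and 6 did not, and these were looked at after their values were seen. LOC_Os04g53370 stood at 6836, 21.4 and 10686 FPKM in dm_29C, against 4.78, 1.53 and 5.02 FPKM in WT_29C, a difference of 8.05 (adjusted p = 0.253). At 45 °C it stood at 14.7, 2193 and 5.55 FPKM in dm_45C, against 2.86, 16.6 and 15.97 FPKM in WT_45C. LOC_Os04g53360, the preceding locus ID, had the same libraries high, at 266.7, 0.66 and 518.3 FPKM in dm_29C, against 0.15, 0 and 0.03 FPKM in WT_29C, and at 72.0 FPKM in replicate 2 of dm_45C. The other 3 libraries labelled double mutant held at most 21.4 FPKM of LOC_Os04g53370 and 0.66 FPKM of LOC_Os04g53360.

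LOC_Os09g32169 stood at 347.6, 1.03 and 0.55 FPKM in dm_29C and at 363.4, 404.1 and 0.21 FPKM in dm_45C, against at most 0.26 FPKM in WT_29C and 1.24 FPKM in WT_45C. LOC_Os03g18779 stood at 62.9, 67.7 and 0.53 FPKM in dm_29C, against 0, 0 and 0.05 FPKM in WT_29C. LOC_Os02g53240 stood at 77.2, 37.4 and 12.2 FPKM in dm_29C, against 0, 0.16 and 0.31 FPKM in WT_29C, and was at 0 in replicate 1 of dm_45C while replicates 2 and 3 held 33.1 and 58.6 FPKM. LOC_Os08g29580 stood at 2.69, 0 and 0 FPKM in dm_29C, against 39.1, 3.23 and 10.3 FPKM in WT_29C (log2 difference -3.01, adjusted p = 0.164).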
